A study of Mus musculus with 6 samples.

Results

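The genes described here encode 7 components of the RAS and ERK pathway, namely Shc1, Grb2, Sos1, Nras, Map2k1, Map2k2 and Mapk3. They were taken by gene symbol from the 14490 genes of an mRNA-seq table of mouse splenic NK cells, with no threshold on their values but with earlier results of these data known, and all 7 were present in it. NK cells were purified by FACS from the spleens of C57BL/6 mice of 6 to 10 weeks, as the methods of the study give it. WT mice were Mettl3fl/fl and carried no Cre, and cKO mice were Ncr1Cre-Mettl3fl/fl, written with Ncr1Cre/+ in the methods and thus heterozygous for Cre, so the floxed Mettl3 alleles were shared by both genotypes and Cre was carried by cKO mice alone. Ncr1 encodes NKp46, and its Cre acts in NK cells and in other innate lymphoid cells that express this receptor. There were 3 samples per genotype. No source used here says whether they came from separate mice, and p-values therefore measure the spread between these samples, which may be technical.

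The pathway carries a signal from a receptor at the membrane to the nucleus. A phosphorylated receptor binds the adaptor SHC1, which recruits GRB2 together with the exchange factor SOS1. SOS1 loads RAS with GTP, RAS-GTP activates the RAF kinases, RAF phosphorylates the kinases MEK1 and MEK2, and these phosphorylate the ERK kinases. In NK cells the pathway lies downstream of the IL-15 receptor and of activating receptors such as NKG2D, and active ERK is needed for the movement of cytotoxic granules. Its activity is set by phosphorylation and GTP binding, which mRNA levels do not measure.

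METTL3, the protein deleted in cKO NK cells, places m6A on mRNA mostly within the consensus DRACH, of which GGACT is the most common form in DNA letters. Methylation was not measured in these samples, and the letters below only locate the motif. GGACT was searched on the sense strand of the longest coding transcript of each gene (GENCODE M21, GRCm38). For a gene without a coding transcript, its longest transcript was searched. At least 1 match was present in 87.7% of the 14105 genes with a transcript, and 12.3% had none. The 7 genes differed in number and place of matches. Sos1 had 6 matches, all in the 3′ UTR. Shc1 and Grb2 had 4 each, in coding sequence and 3′ UTR. Nras had 3, of which 1 was in the 5′ UTR and 2 in the 3′ UTR. Map2k2 had 3 and Map2k1 had 1, all in coding sequence, and Mapk3 had 0. The matches of Sos1 and Map2k2 are printed because these genes passed the test given below in opposite directions, Map2k2 not under every setting. That of Map2k1 is printed because Map2k1 is the sister gene of Map2k2. Mapk3, which was lower under every setting, had no match to print. GGACT is in capitals, with 10 bases of transcript on either side, 5′ to 3′, and the position given is that of the 5 capitals.
Sos1 3′ UTR, chr17:80397952-80397956, minus strand: tcacgtgaagGGACTtttctggcca
Sos1 3′ UTR, chr17:80397733-80397737, minus strand: gttattcagaGGACTgtgagaaaag
Sos1 3′ UTR, chr17:80396254-80396258, minus strand: aaatctcccaGGACTttttagacca
Sos1 3′ UTR, chr17:80395289-80395293, minus strand: gtctactaaaGGACTactaaggctg
Sos1 3′ UTR, chr17:80394549-80394553, minus strand: gggtcatactGGACTacattcaaag
Sos1 3′ UTR, chr17:80394369-80394373, minus strand: ttagggcaagGGACTtgggggtaca
Map2k2 coding, chr10:81121092-81121096, plus strand: ttgagctgctGGACTacatagtgaa
Map2k2 coding, chr10:81123658-81123662, plus strand: gggaggaagtGGACTtcgccggctg
Map2k2 coding, chr10:81123717-81123721, plus strand: acacccacgcGGACTgcagtgtgac
Map2k1 coding, chr9:64191634-64191638, minus strand: agactccaggGGACTcactactctg
The 6 Sos1 matches amount to 0.711 per kb of its long transcript, below the median of 1.02 per kb over genes, and 32.3% of genes had a lower density. Map2k2 had 1.25 per kb, with 62.9% of genes below it. Neither the presence nor the absence of these letters says whether a transcript was methylated.

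The labels and the depth were examined before the pathway genes. The mean of Mettl3 was 1251 ± 56.0 normalized counts in WT and 334 ± 61.9 in cKO (SD, n = 3 each), so its log2 fold change was −1.92 (adjusted p = 2.32e-14 by limma). Its exons overlap those of Tox4. All 12 NK cell markers were detected, with a summed level of 14903 to 15295 CPM (reads scaled to a common sample total) in WT and 14777 to 15148 CPM in cKO. Of them, 2 were called higher and 6 lower in cKO. Marker counts here use the limma rule given below, which called 36.6% of all genes. Markers of B cells summed to 19.9 to 20.7 CPM in WT and 28.7 to 30.1 CPM in cKO, with all 8 detected and 7 of them higher in cKO. Myeloid markers summed to 709 to 750 CPM in WT and 781 to 794 CPM in cKO, with 6 of 10 detected, 4 higher and 1 lower, and S100a8, S100a9, Siglech and Ly6g not listed. T-cell markers (7 of 8 detected, 1 lower) summed to 38.4 to 41.1 CPM in WT and 35.3 to 38.5 CPM in cKO. Erythroid and platelet markers (5 of 8 detected, 0 called) summed to 13.2 to 14.9 and 12.4 to 14.4 CPM, and stromal and endothelial markers (3 of 8 detected, 0 called) to 66.2 to 67.4 and 70.4 to 72.7 CPM. With the samples scaled to equal totals, the markers called higher and lower were 4 and 5 for NK cells, 5 and 1 for myeloid cells, 2 and 1 for T cells and 1 and 0 for stromal and endothelial cells, and as above for the others. The part of these other cells in the results below was not tested. Per sample, 55965515 to 71464042 reads fell on the listed genes.

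Values are normalized counts, the reads of a gene divided by a size factor of its sample. The question put to them was whether deletion of Mettl3 altered the transcripts of this pathway at steady state. Differences are log2 fold changes of cKO over WT, fitted by limma over all 14490 genes on log2(value + 1) with Benjamini-Hochberg adjustment, and a gene was called at an adjusted p under 0.05. By this rule 3 of the 7 genes were called, Sos1 higher and Map2k2 and Mapk3 lower, while 36.6% of all genes were called, 17.8% higher and 18.8% lower. At 42.9%, the share of the 7 was near that of all genes. No difference exceeded 0.24 on the log2 scale. The median log2 fold change of the 7 was −0.051 and the median of its absolute value 0.093, beside 0.0014 and 0.17 over all genes. Over the 11817 genes with at least 1 CPM in at least 3 samples, the median absolute value was 0.146. The values of the genotypes did not overlap for 5 of the 7 genes, and for 45.7% of all genes. With the samples scaled to equal totals, 2 of the 7 were called higher and 1 lower, beside 24.1% and 13.9% of all genes. In bulk RNA of this kind, fewer cells that express a gene and less of its RNA per cell cannot be told apart.

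**Figure D1:**
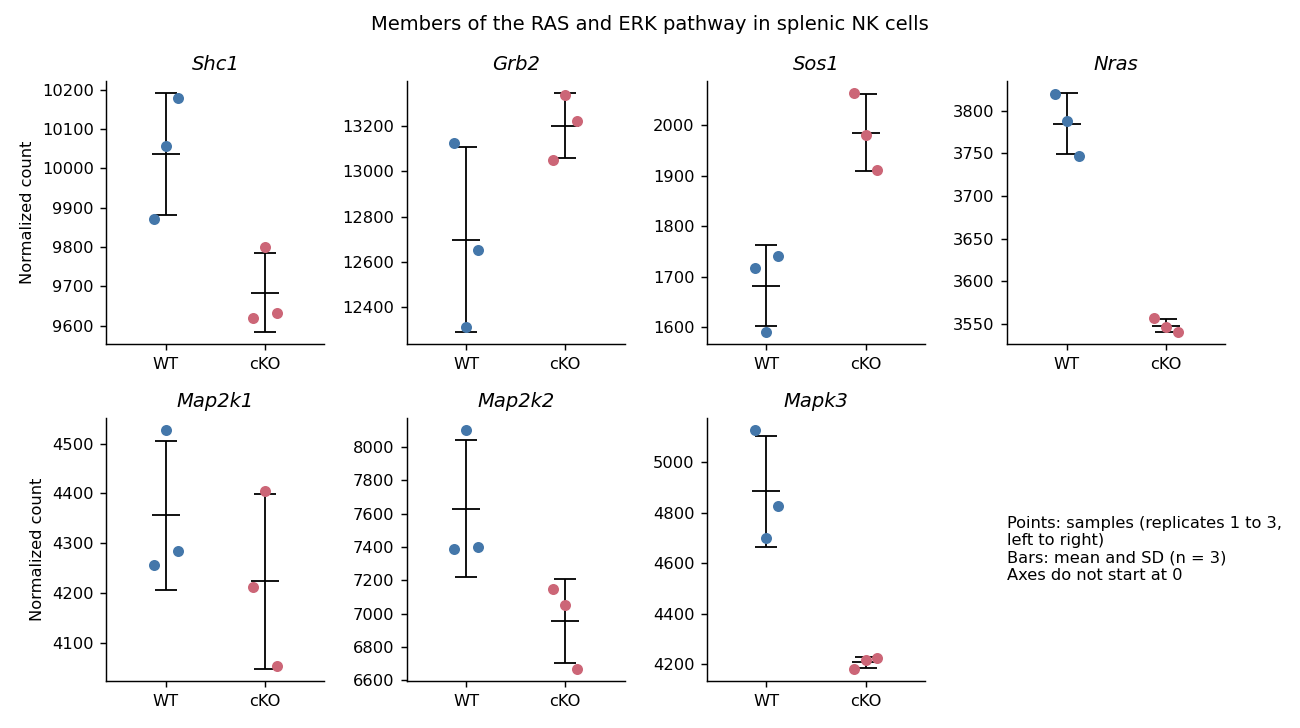
Normalized counts (vertical axes, which do not start at 0) of the 7 genes in each WT and cKO sample, with points for samples and bars for the mean and SD (n = 3). The genotypes are separated for Shc1, Sos1, Nras, Map2k2 and Mapk3, and overlap for Grb2 and Map2k1.

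Neither adaptor at the head of the pathway passed the test. SHC1 is a docking adaptor with a phosphotyrosine-binding and an SH2 domain. Shc1 (chromosome 3, 89418443 to 89430027, plus strand, GRCm38) had 9872, 10058 and 10180 normalized counts in WT replicates 1 to 3 and 9619, 9801 and 9633 in the cKO replicates. All cKO values lay below all WT values, by a narrow margin. The means were 10036 ± 155 (SD, n = 3) and 9684 ± 101 (SD, n = 3), a log2 fold change of −0.051 (95% confidence interval −0.12 to 0.016) with a limma adjusted p of 0.234. GRB2, which bridges phosphorylated SHC1 to SOS1 through its SH2 and SH3 domains, was encoded by the most abundant of the 7 transcripts. Grb2 (chromosome 11, 115644045 to 115708597, minus strand of GRCm38) showed 13125, 12313 and 12653 normalized counts in WT and 13050, 13336 and 13220 in cKO. WT sample 1 lay above cKO sample 1, so the genotypes overlapped. The means were 12697 ± 408 (SD, n = 3) and 13202 ± 144 (SD, n = 3), and the log2 fold change was 0.057 (95% confidence interval −0.011 to 0.12, adjusted p = 0.187 by limma). With equal totals per sample instead of the size factors, the log2 fold change of Grb2 was 0.11 with a limma adjusted p of 0.00915, so that its call rested on the scaling.

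Sos1 was the gene of the 7 with the largest difference, and the only one called higher in cKO with the authors' size factors. SOS1 is the exchange factor that opens RAS for GTP. Sos1 (chromosome 17, 80393751 to 80480453, minus strand of GRCm38) showed 1716, 1589 and 1740 normalized counts in WT replicates 1 to 3 and 2064, 1981 and 1911 in the cKO replicates. The lowest cKO sample exceeded the highest WT sample. The mean rose from 1682 ± 80.9 (SD, n = 3) to 1985 ± 76.5 (SD, n = 3), which is 18.1%, and its log2 fold change was 0.24 (standard error, SE, 0.0539, 95% confidence interval 0.13 to 0.35, adjusted p = 0.000855 by limma). An exact permutation test, which has 20 ways to assign the samples, gave p = 0.1, two-sided, the smallest that 3 samples against 3 allow. Sos1 kept its direction and its call under every alternative run, with adjusted p between 0.000156 and 0.0111. Its transcript was AT-rich, with a GC content of 41.0%, and 8.58% of genes had a lower one. After GC content and length were corrected for, its log2 fold change was 0.25.

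Nras encodes a RAS GTPase, the switch that hands the signal to RAF. It (chromosome 3, 103058285 to 103067914, plus strand) had 3819, 3788 and 3747 normalized counts in WT and 3557, 3547 and 3541 in cKO. All cKO values were below all WT values, and the 3 cKO values lay close together. The coefficient of variation of the cKO samples, 0.223%, was below the 1.63% that read counting alone gives at this depth, so the spread between these samples understates the error. The means were 3785 ± 36.0 (SD, n = 3) and 3548 ± 7.92 (SD, n = 3), a log2 fold change of −0.093 (SE 0.0398, 95% confidence interval −0.18 to −0.011). After adjustment over all genes the limma p was 0.0694, which does not pass. Over the alternatives it lay between 0.0561 and 0.405.

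The genes of the MEK kinases, Map2k1 and Map2k2, encode MEK1 and MEK2, the dual-specificity kinases whose known substrates are the ERK kinases. Map2k1 (chromosome 9, 64185770 to 64253631, minus strand of GRCm38) showed 4256, 4528 and 4283 normalized counts in WT and 4211, 4405 and 4053 in cKO. The genotypes overlapped. The means were 4356 ± 150 (SD, n = 3) and 4223 ± 176 (SD, n = 3), with a log2 fold change of −0.045 (95% confidence interval −0.13 to 0.041, adjusted p = 0.439 by limma). Map2k2 (chromosome 10, 81105915 to 81133975, plus strand) had 7387, 8103 and 7396 normalized counts in WT and 7147, 7054 and 6667 in cKO. The cKO samples were all lower than the WT samples, with WT sample 2 the highest and cKO sample 3 the lowest. The mean fell from 7629 ± 411 (SD, n = 3) to 6956 ± 254 (SD, n = 3). The fitted log2 fold change was −0.13 (SE 0.0398, 95% confidence interval −0.21 to −0.051, adjusted p = 0.00994 by limma), which is a change of −8.78%. This call was lost without WT sample 2 (log2 fold change −0.088, adjusted p = 0.0958 by limma), without cKO sample 3 (−0.10, 0.0715) and with equal totals (−0.083, 0.0960). Map2k2 was GC-rich at 60.4%, above 96.2% of genes, and with GC content and length corrected for its log2 fold change was −0.15.

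Mapk3, the gene of ERK1, had the largest fall of the 7. Mapk3 (chromosome 7, 126759601 to 126765819, plus strand) had 5128, 4702 and 4825 normalized counts in WT replicates 1 to 3 and 4182, 4217 and 4224 in the cKO replicates. The highest cKO value was well below the lowest WT value. The mean fell from 4885 ± 219 (SD, n = 3) to 4207 ± 22.5 (SD, n = 3). The fitted log2 fold change was −0.21 (SE 0.0403, 95% confidence interval −0.30 to −0.13, adjusted p = 0.000123 by limma), which is a change of −13.8%. The exact permutation test gave p = 0.1, two-sided, again the smallest possible. The cKO samples varied by 0.535%, less than the 1.50% expected from read counting alone. The call held under every alternative run, with adjusted p between 6.56e-05 and 0.00205. The exons of none of the 7 genes overlapped those of another annotated gene.

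**Figure D2:**
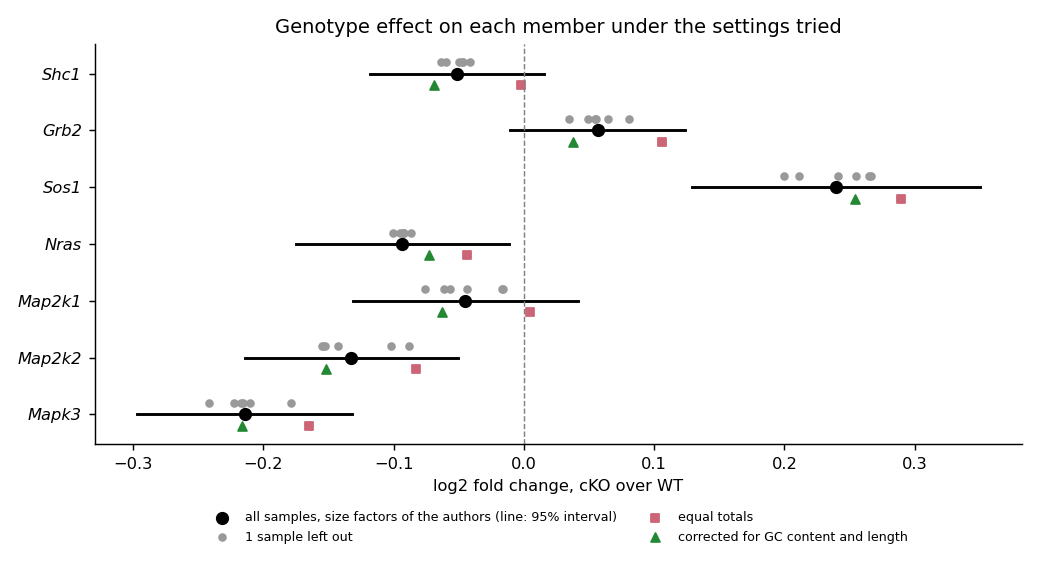
Log2 fold change of cKO over WT (horizontal axis) for the 7 genes, with the 95% confidence interval as a line, the fits that leave out 1 sample as grey points, equal totals as squares and the GC and length correction as triangles. Sos1 stayed to the right of 0 and Mapk3 and Map2k2 to the left under each setting drawn, while Map2k1 crossed 0 with equal totals.

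Levels were compared between genes per kb of the longest coding transcript. In WT, Grb2 stood highest at 4687 ± 150 normalized counts per kb (SD, n = 3), followed by Map2k2 at 3172 ± 171, Shc1 at 3088 ± 47.7, Mapk3 at 2714 ± 122, Map2k1 at 1788 ± 61.5, Nras at 847 ± 8.06 and Sos1 at 199 ± 9.59. Neighbours in this order did not overlap across samples, with the exception of Map2k2 and Shc1. In cKO, Shc1 (2980 per kb) and Map2k2 (2892 per kb) changed places and overlapped again, and the other places were as in WT. Sos1 was the scarcest transcript in both genotypes, 4.25 times below Nras in WT and 3.37 times below it in cKO. The middle of the order depended on the length used. With all exons of a gene joined, Mapk3 followed Grb2, and Map2k1 and Map2k2 overlapped. Which transcripts the cells used was not measured.

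**Figure D3:**
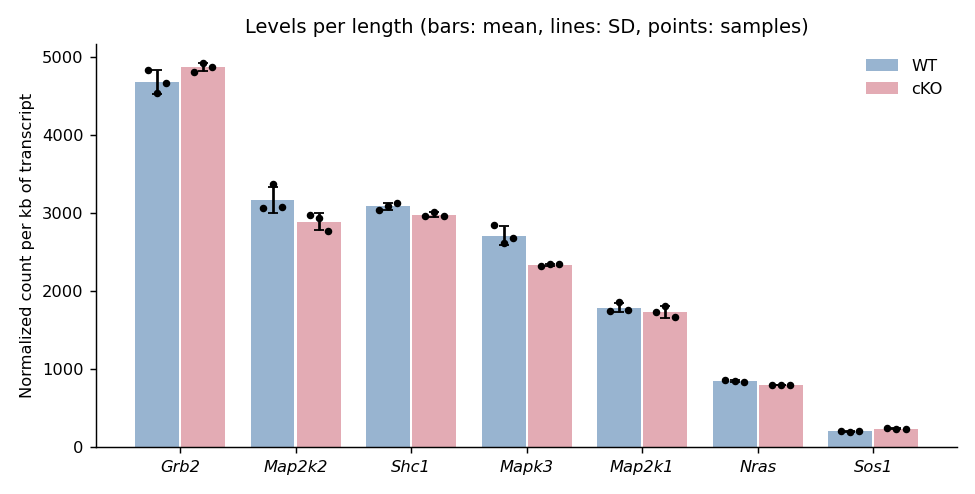
Mean normalized count per kb of the longest coding transcript (vertical axis) for the 7 genes in WT and cKO, with SD lines and points for samples (n = 3). Grb2 stands highest and Sos1 lowest in both genotypes.

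Several steps of the pathway are served by sister genes, and a ratio of sisters within a sample does not depend on how the sample was scaled. The log2 ratio of Map2k1 to Map2k2 was −0.81 ± 0.0278 in WT and −0.72 ± 0.0419 in cKO (SD, n = 3 each), a difference of 0.088, without overlap between genotypes. Sos2, the sister of Sos1, averaged 6066 ± 215 normalized counts in WT and 6291 ± 112 in cKO (SD, n = 3 each), and its log2 fold change was 0.053 (adjusted p = 0.291 by limma, and 0.0303 with equal totals). The log2 ratio of Sos1 to Sos2 was −1.85 ± 0.0241 in WT and −1.66 ± 0.0808 in cKO (SD, n = 3 each), a difference of 0.19. For all 3 ratios reported, that of Nras to Hras below included, the exact permutation test gave p = 0.1, two-sided, the smallest this design allows, and none can pass a threshold of 0.05.

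**Figure D4:**
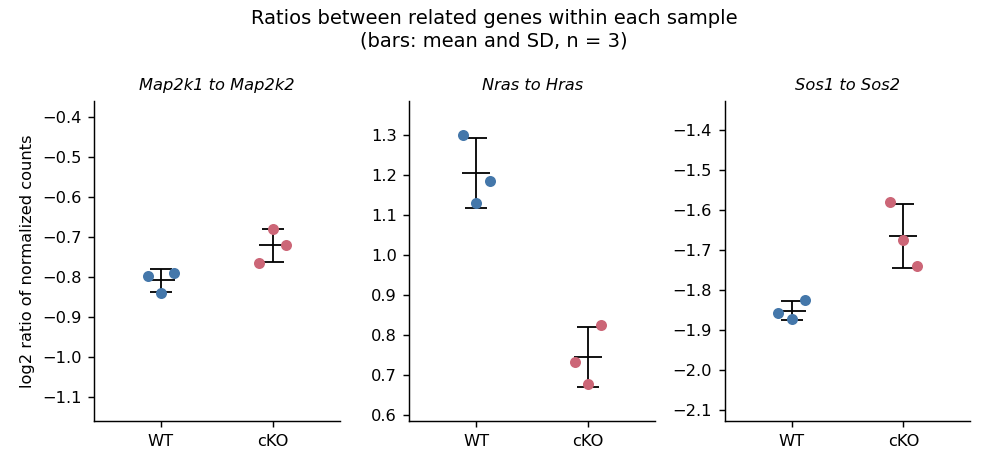
Log2 ratio of the normalized counts of related genes in each sample (vertical axes, of equal span), with bars for the mean and SD (n = 3). WT and cKO are separated in all 3 panels, with the widest gap for Nras to Hras.

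Nras was also set against Hras, the gene of a closely related RAS GTPase. Hras had 1551, 1732 and 1648 normalized counts in WT and 2142, 2220 and 2000 in cKO, without overlap. It rose by 29.0%, a log2 fold change of 0.37 (SE 0.0555, adjusted p = 7.18e-06 by limma). This call held under every alternative run. The log2 ratio of Nras to Hras went from 1.20 ± 0.0872 (SD, n = 3) to 0.74 ± 0.0749 (SD, n = 3), a difference of −0.46. Per sample it was 1.30, 1.13 and 1.18 in WT and 0.73, 0.68 and 0.82 in cKO, without overlap. In these counts, which are not divided by length, Nras exceeded Hras in all 6 samples, and by less in each cKO sample than in any WT sample. Per kb of the longest coding transcript, Nras and Hras had means of 847 and 581 in WT and 794 and 750 in cKO.

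The wider pathway was taken from lists of adaptors, exchange factors, GTPases, inhibitors, kinases and targets that were chosen with earlier results of these data known. Of 87 genes on them, 76 were measured, and 43 of the 76 (56.6%) were called, 21 higher and 22 lower, beside 36.6% of all genes. With equal totals, 27 were higher and 15 lower, while 24.1% of all genes were higher and 13.9% lower. The median log2 fold change of the 76 was 0.023 and the median of its absolute value 0.15, beside 0.0014 and 0.17 over all genes. All genes include scarce ones. In the fit limited to genes with at least 1 CPM in at least 3 samples, 5302 of 11817 genes were called. Of the listed genes, 42 were called in this fit. Its filter also removed scarce genes of the lists, such as Rasgrp3, so the 42 are not out of 76. The median absolute log2 fold change over the 11817 was 0.146.

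Among the other adaptors and docking proteins, 13 of 17 genes were measured and 12 were called, 4 higher and 8 lower (5 and 5 with equal totals). Gab2, a docking protein that binds GRB2 and SHP-2, fell from 2285 ± 52.8 to 1536 ± 36.3 normalized counts (SD, n = 3 each), a log2 fold change of −0.57 (adjusted p = 1.00e-09 by limma). The relatives of GRB2 went in opposite directions. Grap fell, with a log2 fold change of −0.29 (adjusted p = 1.08e-07 by limma), and Grap2, which encodes GADS, rose, with 0.30 (3.35e-07). Dok2, an adaptor that recruits the RAS inhibitor RASGAP, fell by 0.22 on the log2 scale (adjusted p = 3.99e-06 by limma). Ptpn11, the gene of the phosphatase SHP-2, had a log2 fold change of −0.12 (adjusted p = 0.0122 by limma), a call that was lost with equal totals (0.145), without WT sample 1 (0.0769) and without cKO sample 1 (0.0779).

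Of the 6 other exchange factors measured, out of 7, only Rasgrp1 was called. It encodes the diacylglycerol-activated exchange factor RASGRP1 of lymphocytes, and its mean fell from 8448 ± 362 to 7668 ± 69.1 normalized counts (SD, n = 3 each), a log2 fold change of −0.14 (adjusted p = 0.00332 by limma, and 0.0523 with equal totals). With equal totals Sos2 was the 1 gene of this list called, in the higher direction. Of the 5 other RAS GTPases, all measured, 2 were higher and 2 lower (2 and 1 with equal totals). Beside Hras, Rras2 rose (log2 fold change 0.18, adjusted p = 0.000377 by limma), and Rras fell (−0.32, 0.0185). The call of Rras was lost with equal totals (adjusted p = 0.0530) and when WT sample 3 (0.139) or cKO sample 2 (0.0951) was left out.

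The list of inhibitors, made up of the GTPase-activating proteins, the Sprouty and Spred families and Pebp1, had 16 of 18 genes measured. Of these, 6 were higher and 2 lower (7 and 2 with equal totals). Rasa3, a GTPase-activating protein abundant in these cells, rose from 27332 ± 162 to 32018 ± 249 normalized counts (SD, n = 3 each), a log2 fold change of 0.23 (adjusted p = 4.52e-07 by limma). Spry2 also rose (log2 fold change 0.15, adjusted p = 0.000382 by limma). Spred1, with −0.31 (0.00288), and Spry4, with −0.20 (0.00485), fell. The RAF kinases and scaffolds, all 8 measured, had 3 higher and 1 lower (4 and 0 with equal totals). Lamtor3, the gene of the MEK1-binding scaffold MP1, rose by 15.4% (log2 fold change 0.21, adjusted p = 0.000244 by limma), and Shoc2 (0.12, 0.0245) and the scarce Ksr2 (0.49, 0.0245) were also called higher. The call of Shoc2 was lost when WT sample 1, cKO sample 2 or cKO sample 3 was left out (adjusted p up to 0.150), and that of Ksr2 when WT sample 1 or 3 or cKO sample 1 or 3 was left out (up to 0.200). Araf fell (log2 fold change −0.13, adjusted p = 0.00543 by limma, and 0.0842 with equal totals).

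**Figure D5:**
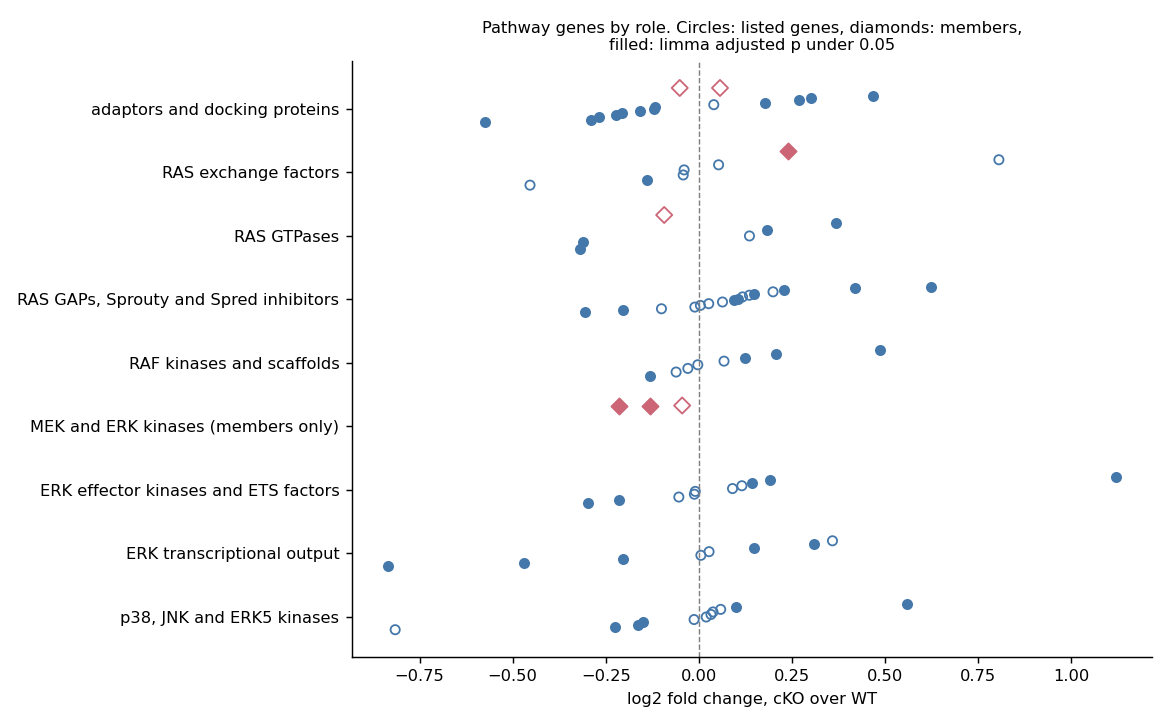
Log2 fold change of cKO over WT (horizontal axis) for the listed genes, grouped by role, with the 7 pathway genes as diamonds and filled symbols for a limma adjusted p under 0.05. The MEK and ERK row shows Map2k1, Map2k2 and Mapk3 alone. Called genes lie on both sides of 0 in most groups, and only Rps6ka2 (1.12), which is scarce, exceeds 1.

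Downstream of ERK, the 10 effector kinases and ETS factors had 3 genes higher and 2 lower (5 and 2 with equal totals). Elk4, an ETS factor phosphorylated by ERK, fell from a mean of 11923 to 9696 normalized counts (log2 fold change −0.30, adjusted p = 9.15e-08 by limma). The MNK kinases, which phosphorylate the translation factor eIF4E, were split, with Mknk2 lower (−0.21, 1.26e-06) and Mknk1 higher (0.19, 0.000904). Rps6ka1, the gene of the ERK effector RSK1, rose (0.14, 0.00241). Rps6ka2, named after its values were seen, was scarce, with 11.9, 9.52 and 33.2 normalized counts in WT and 28.5, 45.4 and 33.8 in cKO, and the genotypes overlapped through WT sample 3. Its log2 fold change was 1.12 (adjusted p = 0.0494 by limma), a call that was lost with a pseudocount of 0.1 (0.0504), after correction for GC content and length (0.0561) and when any sample other than WT sample 3 was left out (up to 0.186). Of 10 genes known as transcriptional output of ERK, 8 were measured, with 2 higher and 3 lower, and the same counts with equal totals. Dusp4, a phosphatase that switches ERK off, rose (log2 fold change 0.31, adjusted p = 1.59e-05 by limma), and the ETS factor Etv5 fell (−0.47, 0.000106). Spry2 and Spry4, named above, are on this list too. Dusp6, also on this list, was not called, at 0.027 (95% confidence interval −0.043 to 0.098), and was chosen after its values were seen. These mRNA levels do not measure ERK activity. In the parallel cascades of p38, JNK and ERK5, 11 of 13 genes were measured, with 2 higher and 3 lower (the same with equal totals). Mapk7, the gene of ERK5, rose from 1559 ± 58.9 to 2297 ± 26.6 normalized counts (SD, n = 3 each), with a log2 fold change of 0.56 and an adjusted p of 1.75e-09 by limma. The JNK genes Mapk8 (−0.23, 0.00104) and Mapk9 (−0.16, 0.00305) and the p38 activator Map2k3 (−0.15, 0.000651) fell.

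For each of the 7 genes, the gene with the most similar pattern was sought among 7829 genes with a mean of at least 10 CPM, by the Euclidean distance between centred log2 values over the 6 samples. The nearest was Cog3 for Shc1 (distance 0.0130 log2 units), Zzz3 for Grb2 (0.0146), Samd3 for Nras (0.0192) and Ftl1 for Map2k1 (0.0189), and reads of Ftl1 may be shared with near-identical copies. For the genes that were called, the nearest were Ehbp1l1 for Sos1 (0.0647), Psma7 for Map2k2 (0.0445) and Itgav for Mapk3 (0.0401). With so many candidates and 6 samples, such nearness is a description of these libraries.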

How the data were processed

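mRNA-seq of splenic NK cells was analysed, with 3 WT and 3 cKO samples grouped by the labels. The authors aligned reads to GRCm38 with HISAT2, counted them with featureCounts (1.5.0-p3) and compared genotypes with DESeq2 (1.16.1). Versions are those of the submitters' processing notes, and the methods of the study give other versions of HISAT2 and DESeq2. For each sample the authors deposited a signal, counts divided by its size factor, and the mean over samples. The deposited authors' log2 fold changes, Wald score, p-value and adjusted p-value were not used.

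Values were taken as log2(value + 1) and fitted by limma 3.58.1 (R 4.3.3) with a variance trend on all 14490 genes, two-sided. A filter asking for a value of 1 or more in 3 or more samples removed none. Within a sample the values are whole multiples of the worth of a read (tolerance 0.01 reads), which gave the reads per gene. Positions, lengths and GC content came from GENCODE M21 (GRCm38) for 97.3% of names. The fit was tested on simulated data in which far fewer genes were changed than were called here, so that test does not cover data like these.

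The members and lists were chosen with earlier results of these data known. Named genes were the 7 pathway genes, Mettl3, Ptpn11, Hras, Sos2, up to 4 genes per list with the smallest adjusted p under 0.05 and a mean of 1 CPM or more, and the nearest gene of each of the 7, and some genes under this rule are not reported here. Same-genotype samples differed beyond counting noise (chi-square per degree of freedom 5.50 to 8.00). Alternatives were a pseudocount of 0.1, no filter, at least 1 CPM in at least 3 samples, equal totals, a spline correction for GC content and length, the replicate number as a block, each sample left out, and limma-voom on recovered reads, which was chosen after seeing the data.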

Additional observations from a re-analysis of the deposited data

How the results depend on the processing

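The count of called pathway genes was 3 under every alternative with all samples and 2 to 3 with 1 sample left out. With equal totals Grb2 was called (log2 fold change 0.11), Map2k1 changed sign (0.0047, limma adjusted p = 0.945) and Map2k2 lost its call (−0.083). The equal-totals scaling moved the median of all genes to 0.051, and 63.4% of 5503 calls were then higher in cKO, against 48.5% of 5307 with the authors' size factors; 1 and 2 pathway genes were higher and lower with the latter, 2 and 1 with the former. Leaving out 1 sample gave log2 fold changes of −0.063 to −0.041 for Shc1, 0.035 to 0.081 for Grb2, 0.20 to 0.27 for Sos1, −0.10 to −0.087 for Nras, −0.076 to −0.016 for Map2k1, −0.16 to −0.088 for Map2k2 and −0.24 to −0.18 for Mapk3, and 34 to 39 calls among the wider lists and 4417 to 4922 among all genes. The 3 ratios between sister genes kept their direction without any 1 sample. Of the values of the other genes under the naming rule across the alternatives, 381 kept direction and call, 21 lost the call and 1 gained it. The labels do not say whether samples of the same replicate number were paired. Correlations of same-numbered deviations were −0.040, 0.056 and 0.038, which with 3 samples per genotype cannot decide it. The replicate block left 3 pathway genes called, with 45 genes of the lists and 5543 of all genes, and changed no call among the 7. The planned edgeR and DESeq2 tests on recovered reads were not run, and limma-voom was fitted to these reads instead. Depth limits the scarce Sos1 most, where read counting alone gives a coefficient of variation of 2.50% in WT.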
